A study of Mus musculus with 3 samples.

Results

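The potassium channel genes of the lumbar spinal cord were taken as every row of the deposited UMI table whose symbol starts with Kcn. Of 99 such rows, 5 antisense and overlapping transcripts (Kcnd3os, Kcnab3os, Kcnmb4os1, Kcnmb4os2 and Kcnq1ot1) were left out, and 17 genes had under 100 UMIs over all nuclei. The remaining 77 genes are described here, of 17497 genes with 100 or more UMIs and 31040 rows in all. A UMI, or unique molecular identifier, marks 1 captured RNA molecule. Just inside the limit were Kcnj5 with 112 UMIs, Kcne1l with 135 and Kcnf1 with 146, and just outside were Kcnh3 with 93, Kcnmb3 with 67 and Kcne4 with 55. Of the 77 genes, 65 encode pore-forming subunits, 11 encode auxiliary subunits and 1 (Kcnrg) is neither.

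The study sequenced single nuclei of lumbar spinal cords from 6 SOD1G93A and 6 WT mice at an age of 90 days, with 3 females and 3 males per genotype. SOD1G93A mice (B6.Cg-Tg(SOD1*G93A)1Gur/J) carry a high-copy human SOD1 transgene with a mutation of familial amyotrophic lateral sclerosis, driven by the human SOD1 promoter, and WT mice are C57BL/6J littermates without it. Nuclei of each mouse were stained with a hashtag, and the 4 mice of each of 3 pools (A, B and C) were 1 female and 1 male per genotype. The question put to the potassium channel genes was where they are expressed, and whether their levels differ between the genotypes within a cell type.

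Potassium channels let potassium ions leave or enter a cell along their gradient and thereby set the resting potential, end the action potential and limit repeated firing. Voltage-gated channels (Kv families) open on depolarization, inward rectifiers and tandem-pore (K2P) channels carry current near the resting potential, and calcium-activated channels (BK and SK) open when calcium enters. Auxiliary subunits such as the Kv beta, KChIP and BK beta proteins do not form pores but change gating or traffic. In the spinal cord, glial channels take up potassium released by active axons, and motor neurons and sensory interneurons differ in firing.

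The pore-forming members share a selectivity filter, the stretch of the pore that passes potassium and holds back sodium, which ends in glycine, a tyrosine, phenylalanine or leucine, and glycine. The longest coding sequence of each gene in GENCODE M21 was searched in frame, on the coding strand only, for GGNTANGGN and for GGNTTNGGN, which cannot match at the same place. One or the other was present in 65 of 65 pore-forming members, in 0 of 11 auxiliary members and in 16.7% of 21562 coding genes. GGNTANGGN was in 51 of the 65 (78.5%, against 6.09% of all coding genes), and a threonine codon (ACN) starting 2 codons before either motif was in 55 of the 65 (84.6%, against 1.28%). GGNTTNGGN was in 7 of 7 members of the EAG-ERG-ELK family and in 3 of 3 of the Slo2/Slo3 family (Kcnt1, Kcnt2 and Kcnu1). Kcnh4 of the former held it at codon 441 and GGNTANGGN at codon 54. A match anywhere in the coding sequence was counted, so that it need not be the filter, and none was tested as a site. The filter stretches of 6 members on which the results below turn are shown to let their letters be compared, on GRCm38 (mm10), with the motif in capitals. Kcnk2, a tandem-pore channel, held GGNTTNGGN at codons 159 and 268, and only the stretch at codon 268 is shown.
Kcnma1: atgtctacagtgGGTTATGGGgacgtttat
Kcnk2: ctgacgaccattGGATTTGGAgactacgtg
Kcnj10: cagaccaccatcGGCTATGGCttccgctac
Kcnj8: caagtgaccattGGGTTTGGAgggagaatg
Kcnq3: ctggccaccattGGTTATGGAgacaagaca
Kcnh1: ctcaccagtgtgGGCTTTGGTaacattgcc
They lie in coding exons at chr14:23528404-23528433 (minus strand, exon 8) for Kcnma1, chr1:189256572-189256601 (minus, exon 5) for Kcnk2, chr1:172369296-172369325 (plus, exon 2) for Kcnj10, chr6:142566439-142566468 (minus, exon 3) for Kcnj8, chr15:66023722-66023751 (minus, exon 6) for Kcnq3 and chr1:192337748-192337777 (plus, exon 7) for Kcnh1.

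The table held 14662 nuclei and 206486779 UMIs, with 548 to 2259 nuclei and 6411715 to 36668441 UMIs per mouse, and the pools shared 15 cell barcodes. Nuclei came in 10 deposited cell types, of which neurons had 8800 nuclei and motor neurons 67, with 1 to 11 motor neuron nuclei per mouse. For 10 of 10 types the fixed marker list was highest in its own type, but the next type was close for some. The microglia list was 80.9 CPM, against 64.2 in ependymal cells, the neuron list 795 against 537 in motor neurons, and the Schwann list 126 against 56.2 in endothelial cells. The oligodendrocyte list was 6149 CPM in oligodendrocytes, 5157 in the mixed type of Schwann and meningeal cells, 2374 in microglia, 2054 in OPCs and 382 in neurons. Sod1, which may collect reads of the human transgene, was higher in each SOD1G93A mouse than in each WT mouse in 5 of the 8 types that all 12 mice contributed to, and in neurons it was 28.6 to 84.9 CPM in WT and 63.4 to 230 CPM in SOD1G93A. CPM is the count of a gene scaled to 1000000 UMIs of that mouse and type. Introns were counted, so that a long gene collects more UMIs than a short one, and levels are compared here only within a gene.

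Transcripts of neurons also appeared in nuclei of other types. The summed level of 6 neuron genes (Snap25, Syt1, Celf4, Grin1, Rbfox3 and Camk2a) relative to neurons was 0.0972 in endothelial cells, 0.258 in oligodendrocytes, 0.278 in astrocytes, 0.450 in OPCs, 0.667 in microglia and 1.24 in the Schwann and meningeal type. A member at or below this ratio in a type could not be told from such background by its level, and the source of its RNA was not tested. Above it were 64 of 77 members in oligodendrocytes, 59 in astrocytes, 59 in endothelial cells, 58 in microglia, 57 in OPCs and only 34 in the Schwann and meningeal type. The share of all genes above the ratio was not computed, so that these counts do not set the members apart from other genes. Of 223 microglia nuclei, 15 had no UMI of Grin1, Rbfox3 or Camk2a, and the median microglia nucleus held 46927 UMIs, against 12864.5 in neurons. Kcnip4 lay above the ratio in microglia, at 5067 CPM against 6580 in neurons, and was 180 CPM in those 15 nuclei. A member above the ratio can therefore still be background. Free RNA and nuclei captured together cannot be told apart here, and doublets within a mouse were not marked in the table.

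Over those 8 types, each member was assigned to the type of its highest mean level. This was Schwann and meningeal cells for 25 members, neurons for 18, motor neurons for 12, astrocytes for 7, oligodendrocytes for 6, OPCs for 5, endothelial cells for 4 and microglia for 0. Of the 25, 3 (Kcnk2, Kcng2 and Kcnk4) were at or below the neuron background ratio of the Schwann and meningeal type. Most of the 25, such as Kcnk3 and Kcng4, had 0 CPM in their lowest mouse of this type. The highest type was not counted over all genes, so that the 25 may reflect this type rather than the members. With TMM scaling of library sizes over all types, the 25 became 19 and the 18 became 23. Under the alternative settings, 66 to 73 of the 77 members kept their highest type. The 18 neuronal members were Kcnb2, Kcnc2, Kcng3, Kcnh5, Kcnh6, Kcnh7, Kcnip1, Kcnip2, Kcnj3, Kcnj5, Kcnj6, Kcnmb2, Kcnn2, Kcnq5, Kcns3, Kcnt1, Kcnt2 and Kcnv2. The cell types were built from the expression of these same nuclei, so that levels between types are a description without a test. The lowest mouse of the highest type lay above the highest mouse of every other type for 4 members (5.19%, against 7.42% of all genes), which were Kcna1, Kcna2 and Kcnc1 in Schwann and meningeal cells and Kcnj8 in endothelial cells. The map of members by cell type shows these patterns by family.

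**Figure D1:**
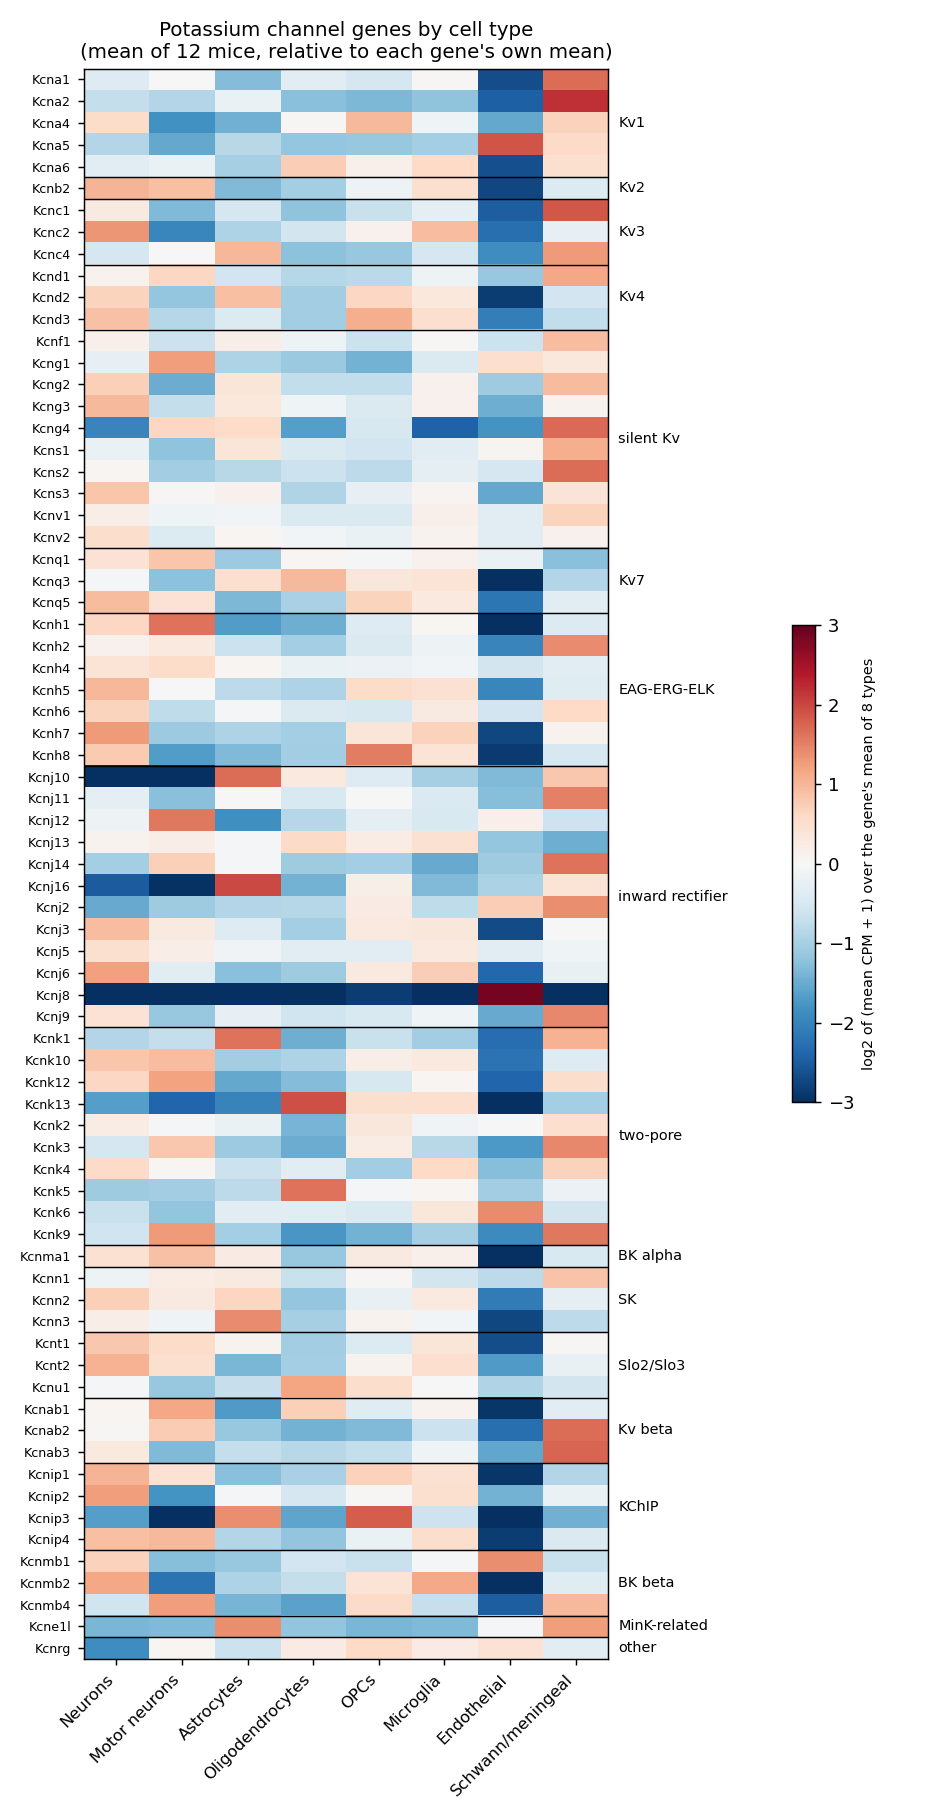
Heat map of 73 of the 77 potassium channel genes, grouped by family (rows), in the 8 cell types with nuclei of all 12 mice (columns), coloured by log2 of mean CPM + 1 relative to the mean of the gene over the 8 types. Most rows are highest in neurons, motor neurons or Schwann and meningeal cells, and single members stand out in astrocytes (Kcnj10, Kcnj16), oligodendrocytes (Kcnk13) and endothelial cells (Kcnj8).

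Among the inward rectifiers, Kcnj10 (Kir4.1, the main glial potassium uptake channel) and its partner Kcnj16 (Kir5.1) were highest in astrocytes. Kcnj10 was 306 ± 42.1 CPM in astrocytes (SD, n = 12, lowest 223, median 311, highest 368), 169 in Schwann and meningeal cells, 118 in oligodendrocytes and 10.2 in neurons. The lowest astrocyte mouse was below the highest Schwann and meningeal mouse (263) and above all oligodendrocyte mice (highest 164). Kcnj16 was 59.1 ± 14.5 CPM in astrocytes (lowest 42.6, median 55.0, highest 89.2), which was 34.5 times its level in neurons, and Kcnj10 was 29.9 times. Kcnj10 was the member raised over neurons in every mouse in the most types, at 11.5 times in oligodendrocytes, 7.12 in OPCs, 4.67 in microglia and 3.67 in endothelial cells. In astrocyte nuclei without UMIs of Grin1, Rbfox3 and Camk2a, Kcnj10 was 331 CPM. The oligodendrocyte list was also above neurons in OPCs and microglia, at 5.38 and 6.22 times, and the part of oligodendrocyte RNA in the levels of Kcnj10 and Kcnk13 there was not tested.

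Kcnj8 (Kir6.1, the pore of vascular ATP-sensitive channels) was the member most confined to 1 type by its ratio. It was 112 ± 45.5 CPM in endothelial cells (lowest 67.4, median 86.8, highest 200, from 502 UMIs), 59.4 times the mean of the other types, and the highest value of any mouse in another of the 8 types was 13.5 CPM, in OPCs. Fibroblasts, with 5 UMIs of Kcnj8, reached 70.8 CPM in 1 mouse. The deposited endothelial type also held transcripts of mural cells, the contractile cells around vessels, with the list of Pdgfrb, Rgs5, Acta2 and Abcc9 at 3975 ± 463 CPM against 9.15 in neurons. Abcc9, the sulfonylurea receptor that joins Kcnj8, was 389 ± 84.5 CPM there against 3.28 in neurons. Endothelial and mural nuclei were not separated. Kcnj2 was 6.4 times its neuron level in endothelial cells, at 15.3 CPM, but only 1.06 times the mean of the other types. Its highest mean of the 8 types was 24.5 CPM, in Schwann and meningeal cells.

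Of the tandem-pore channels, Kcnk1 (TWIK1) had its highest mean over all nuclei in astrocytes and Kcnk13 (THIK1) in oligodendrocytes. Kcnk1 was 135 ± 25.4 CPM in astrocytes (lowest 88.2, median 140, highest 168) and 22.7 in neurons, and Schwann and meningeal mice, with a mean of 88.3, reached into the astrocyte range. Kcnk13 was 407 ± 68.1 CPM in oligodendrocytes (lowest 302, median 402, highest 536), 149 in microglia, 149 in OPCs and 32.9 in neurons. All 12 oligodendrocyte mice were above all 12 microglia mice, whose highest value was 184, but 1 OPC mouse reached 361. In nuclei without the 3 neuron genes, Kcnk13 was 500 CPM in oligodendrocytes and 491 in microglia, the latter 3.28 times the value of all microglia nuclei and from 15 nuclei of 7 mice. Kcnk5 was 25.0 times its neuron level in oligodendrocytes, at 7.39 CPM.

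Of the KCNQ (Kv7) genes, Kcnq3 and Kcnq5 encode channels of the M-current, which restrains repetitive firing. Kcnq3 was highest in oligodendrocytes. It was 1512 ± 114 CPM there (lowest 1282, median 1535, highest 1719), 1092 ± 133 in astrocytes, 1035 in microglia, 978 in OPCs and 738 ± 69.2 in neurons. Oligodendrocytes and neurons did not overlap, with a highest neuron mouse of 862, whereas the highest astrocyte mouse (1385) was above the lowest oligodendrocyte mouse. Kcnq5 was highest in neurons (661 ± 47.2 CPM).

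The Kv4 genes Kcnd2 and Kcnd3 encode A-type channels, and their KChIP partners (Kcnip1 to Kcnip4) bind calcium. Kcnd2 was 3978 ± 550 CPM in astrocytes (3047 to 4860) and 3397 ± 207 CPM in neurons (3083 to 3741), higher in astrocytes in 10 of 12 mice, with ranges that overlapped, and 3306 ± 714 CPM in OPCs. In nuclei without the 3 neuron genes Kcnd2 was 4071 CPM in astrocytes and 5383 CPM in OPCs, so that the order of these types turned. Kcnip3 (also called DREAM, a calcium-regulated repressor) was highest in OPCs, at 251 ± 117 CPM (lowest 116, median 232, highest 571), followed by astrocytes at 186 and neurons at 21.6. Kcnd3 was 257 ± 99.5 CPM in OPCs and 224 ± 29.0 in neurons, which did not differ beyond their spread. Kcnh8 (ELK1) was 199 ± 71.6 CPM in OPCs and 118 in neurons. In OPC nuclei without the 3 neuron genes, Kcnip3 was 503 CPM and Kcnh8 383 CPM. Kcnip4 was 6580 ± 491 CPM in neurons and 6883 in motor neurons. In microglia it was 5067 CPM over all nuclei and 180 CPM in the 15 nuclei without the 3 neuron genes.

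**Figure D2:**
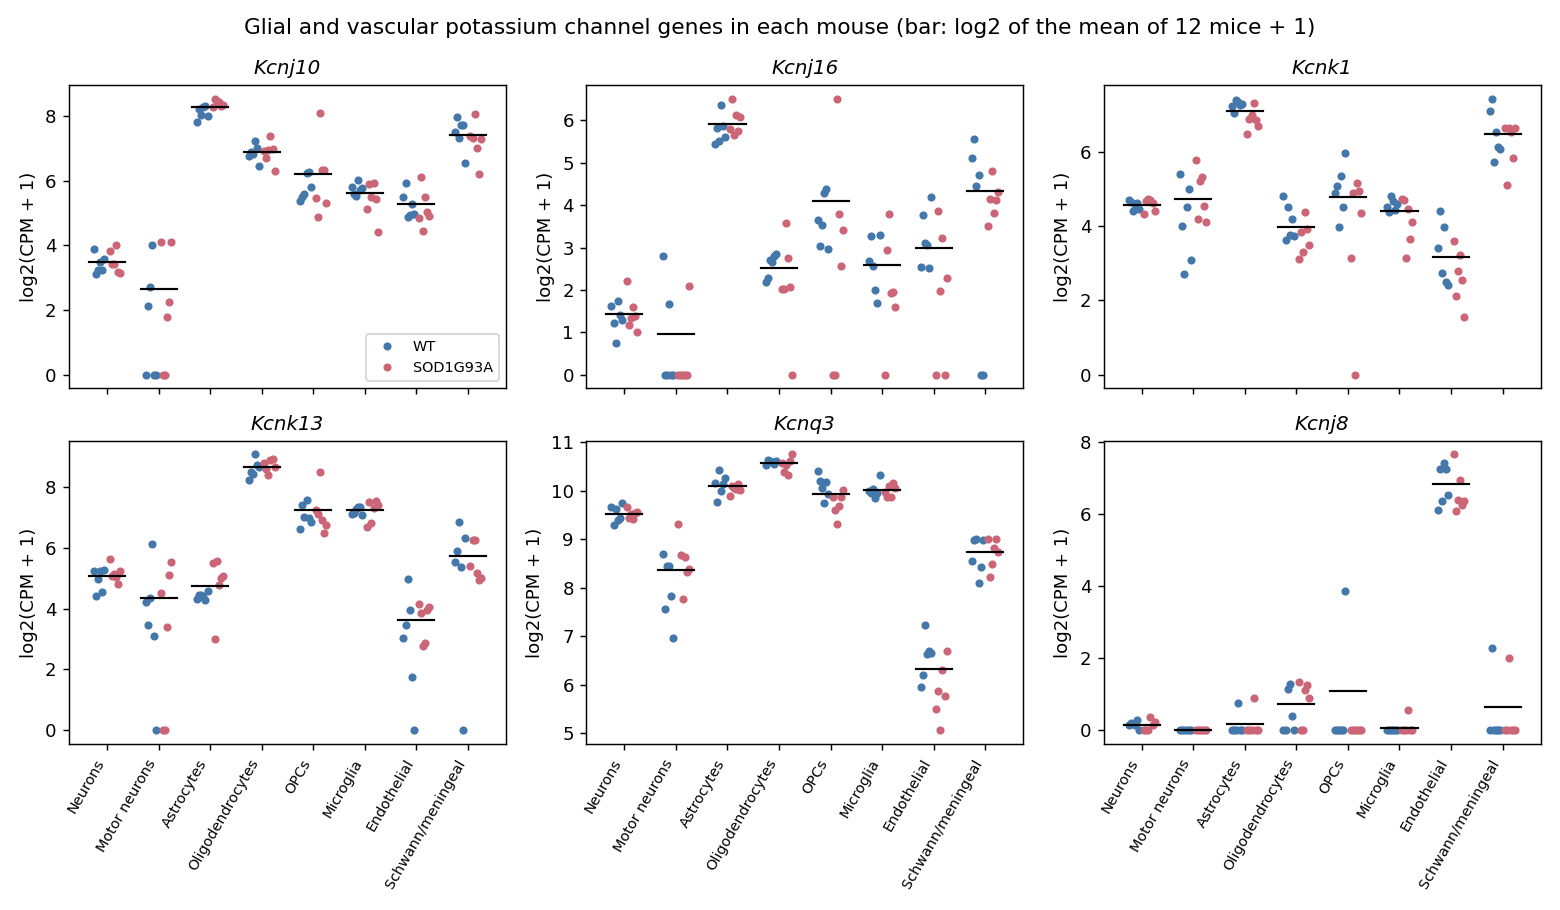
Level of Kcnj10, Kcnj16, Kcnk1, Kcnk13, Kcnq3 and Kcnj8 in each of 12 mice (points, log2 of CPM + 1) in 8 cell types. Kcnj8 is at most 13.5 CPM outside endothelial cells, Kcnj10, Kcnj16 and Kcnk1 are highest in astrocytes, and Kcnk13 and Kcnq3 are highest in oligodendrocytes.

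The 25 members highest in Schwann and meningeal cells included channels of axons and fast-firing neurons. Kcna1 and Kcna2 (Kv1 channels of the juxtaparanode, beside the node of Ranvier) were 514 ± 130 CPM (340 to 693) and 469 ± 139 CPM (229 to 669), and the highest mouse of any other type was 276 for Kcna1 and 162 for Kcna2. Kcnc1 (a Kv3 channel of fast firing) was 299 CPM (151 to 485) against at most 120 in a neuron mouse. Kcnab3, a Kv beta subunit, was 29.3 ± 17.5 CPM. The neuron genes stood at 1.24 times their neuron level in these nuclei, the Schwann list at 126 CPM and the median nucleus at 1584 UMIs. In the 494 of 1031 nuclei of this type without the 3 neuron genes, Kcna1 was 573 CPM and Kcna2 504 CPM. At the depth of this type a nucleus can lack these UMIs by count alone. Of members highest in neurons, Kcnb2 was 335 CPM in the 494 nuclei against 375 over all nuclei of the type. Kcnc2 was 278 against 257 and Kcnmb2 32.5 against 74.8. This selection therefore cannot separate the levels of Kcna1 and Kcna2 from neuronal RNA. The part of neuronal RNA in these levels was not tested.

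Ependymal cells and fibroblasts had nuclei of 11 and 10 mice and only 93 and 46 nuclei. In ependymal cells Kcnn3 (SK3, a small-conductance calcium-activated channel) was 594 ± 368 CPM from 119 UMIs, 21.7 times the mean of the other types. In astrocytes Kcnn3 was 83.5 ± 19.2 CPM and in neurons 35.5. In fibroblasts Kcnk2 (TREK1, a leak channel that responds to stretch and lipids) was 428 ± 505 CPM from 111 UMIs, so that its spread was larger than its mean.

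The members were lower in glia than in neurons more often than other genes. In astrocytes 32 of 77 members were below neurons in all 12 mice (41.6%, against 15.8% of 17497 genes) and 9 were above (11.7%, against 18.5%). Besides Kcnj16, Kcnj10, Kcnip3 and Kcnk1, the 9 included Kcng4, Kcnc4, Kcnn3 (2.35 times) and Kcnq3 (1.48 times). In oligodendrocytes 40 members were below (51.9%, against 18.3%) and 7 above (9.09%, against 17.1%), in endothelial cells 45 were below (58.4%, against 24.1%) and 4 above (5.19%, against 24.5%). In OPCs 22 were below (28.6%, against 5.61%) and 3 above (3.9%, against 3.11%), and in microglia 10 were below (13%, against 4.7%) and 6 above (7.79%, against 7.84%). The 22 count Kcnj5 and Kcnf1, with 0 of 3713699 OPC UMIs, which allows up to 0.808 CPM. In neurons they were 0.768 and 0.719 CPM, so that a difference was not detectable at this depth. Without the SOD1G93A female of pool C, which had 2 OPC nuclei, 5 members were above in OPCs, against 4.94% of all genes. In Schwann and meningeal cells 19 were below (24.7%, against 11%) and 10 above (13%, against 9.2%). These counts describe how many members lay on 1 side and were not tested.

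Motor neurons were compared with the other neurons in the same mice. There, 7 members were higher in all 12 mice (9.09%, against 2.57% of all genes) and 19 lower (24.7%, against 7.68%). Without the SOD1G93A female of pool C, which had a single motor neuron nucleus, the counts were 8 (against 3.48% of all genes) and 20 (against 8.48%). Kcnh1 (EAG1) was 271 ± 66.4 CPM in motor neurons (lowest 178, median 253, highest 413) and 133 ± 13.7 in other neurons (104 to 153), so that the ranges did not overlap. The acid-sensitive leak channels Kcnk9 (TASK3) and Kcnk3 (TASK1) were 106 ± 33.5 against 28.1 CPM and 30.4 ± 8.16 against 11.6 CPM. The Kv beta subunit Kcnab1 was 774 ± 159 against 361 CPM, and Kcng4, a silent modifier of Kv2 channels, 22.5 against 2.9 CPM. The other members higher in all mice were Kcnq1 and Kcna1, at 1.31 and 1.3 times. Of the 8800 other neurons, 3089 were dorsal excitatory and 1589 dorsal inhibitory nuclei. Kcnq1 and Kcna1 were 313 and 160 CPM in motor neurons, and 335 and 219 CPM in ventral inhibitory neurons. The highest mean of a named neuron sub-type was below motor neurons for Kcnh1 (160), Kcnk9 (47.6), Kcnk3 (19.3), Kcnab1 (496) and Kcng4 (5.6). Kcnma1 (BK, the large calcium-activated channel) was 1323 ± 240 CPM in motor neurons and 983 ± 84.9 in other neurons, higher in 11 of 12 mice. Kcnj12 (Kir2.2) was 23.6 ± 17.5 CPM from 86 UMIs, and Kcnk12 35.9 ± 17.4 CPM.

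The members lower in motor neurons in all 12 mice included 2 of 3 Kv4 and 2 of 4 KChIP genes. Kcnip4, also a KChIP gene, was 6883 CPM in motor neurons and 6580 in other neurons. Kcnd2 was 948 ± 454 CPM in motor neurons (181 to 1708) and 3397 in other neurons, Kcnd3 65.9 against 224, and Kcnip2 1.65 against 20.8. Kcnc2 (a Kv3 channel) was 78.9 ± 66.2 against 770 ± 82.0 CPM, 0.103 of the neuron level, and Kcnh7 (ERG3) 137 against 711 CPM. Kcnq3 was 329 against 738 CPM and Kcnj6 (GIRK2, gated by G proteins) 51.3 against 151 CPM. The lowest mean of a named neuron sub-type was above motor neurons for Kcnd2 (2485), Kcnip2 (3.46), Kcnc2 (255), Kcnh7 (435), Kcnq3 (439) and Kcnj6 (64.7). For Kcnd3 it was 43.8 CPM, in ventral inhibitory neurons, against 65.9 in motor neurons. The 19 also count Kcns1 and Kcnf1, with 0 of 3941114 motor neuron UMIs, which allows up to 0.761 CPM. In other neurons Kcns1 was 0.999 ± 0.339 CPM, and for Kcnf1, at 0.719 ± 0.392 CPM, a difference was not detectable at this depth.

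Among neurons, 8 sub-types were named from their position and transmitter, beside a group of unclear neurons. Dorsal neurons, which receive sensory input, were the dorsal excitatory (DE) and dorsal inhibitory (DI) nuclei, and ventral neurons, near the motor output, the ventral excitatory (VE) and inhibitory (VI) nuclei. In this comparison 32 members were higher in dorsal neurons in all 12 mice (41.6%, against 12.4% of all genes) and 12 lower (15.6%, against 13.2%). The sub-types were mapped from the expression of these nuclei, so that no test was made. Dorsal nuclei were shallower, with a median of 10188 UMIs in DE and 11763 in DI against 19812 in VE and 23031 in VI. With the ratios centred on the median gene, both counts were the same.

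By family, the members higher in dorsal neurons in every mouse included 4 of 4 KChIP, 3 of 3 BK beta, 2 of 3 Kv4, 3 of 5 Kv7, 4 of 12 inward rectifier, 4 of 10 silent Kv, 3 of 10 tandem-pore, 2 of 7 EAG-ERG-ELK, 2 of 4 Kv3, 1 of 5 Kv1, 1 of 3 SK and 1 of 3 Slo2/Slo3 members. The silent subunit Kcng2 was 20.6 ± 3.8 CPM in dorsal neurons (16.2 to 27.9) and 1.17 ± 0.586 in ventral neurons (0 to 1.94), 17.5 times the ventral level. Kcnh8 was 214 ± 23.5 CPM (177 to 249) against 18.4 ± 6.96 (8.35 to 29.7), and Kcnip2 37.1 ± 6.14 (25.8 to 48.8) against 4.55 ± 1.38. For these 3 genes no dorsal mouse reached the ventral range. How many of all genes lacked overlap between dorsal and ventral neurons was not computed. Kcnd3 was 385 ± 49.2 CPM against 65.1 ± 17.3, and Kcnd2 4184 ± 202 against 2500 ± 215. These 2 Kv4 genes and the 4 KChIP genes lay on the dorsal side, whereas the other Kv4 gene, Kcnd1, was of mixed direction over the mice. Kcnip3 was 33.7 against 4.45 CPM, Kcnip4 8122 against 4374 and Kcnip1 646 against 312. Kcnc2 was 1197 ± 108 against 274 ± 64.7 CPM, the sodium-activated Kcnt2 (Slick) 598 ± 74.7 against 135 ± 17.7, and Kcnq3 965 against 437. Kcnv1, a silent subunit, was 1.89 against 0.191 CPM.

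On the ventral side were 2 of 5 Kv1 and 2 of 3 Kv beta members, whereas the Kv1 gene Kcna4 was higher in dorsal neurons in every mouse, at 15.3 against 6.66 CPM. Kcna1 was 208 ± 43.8 CPM in ventral neurons (152 to 277) and 70.5 ± 13.3 in dorsal neurons (46.0 to 93.6), without overlap. Kcna2 was 86.1 against 48.6 CPM, Kcnab2 66.4 against 32.1 and Kcnab3 16.5 against 5.76. Kcns3, a silent subunit, was 49.4 ± 9.17 CPM in ventral and 7.83 ± 2.93 in dorsal neurons. Kcnn2 was also ventral, at 578 against 456 CPM. Kcnma1 differed little, at 1065 ± 108 against 941 ± 67.0 CPM, though it was lower in dorsal neurons in each mouse. The plot of dorsal against ventral levels shows these members.

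**Figure D3:**
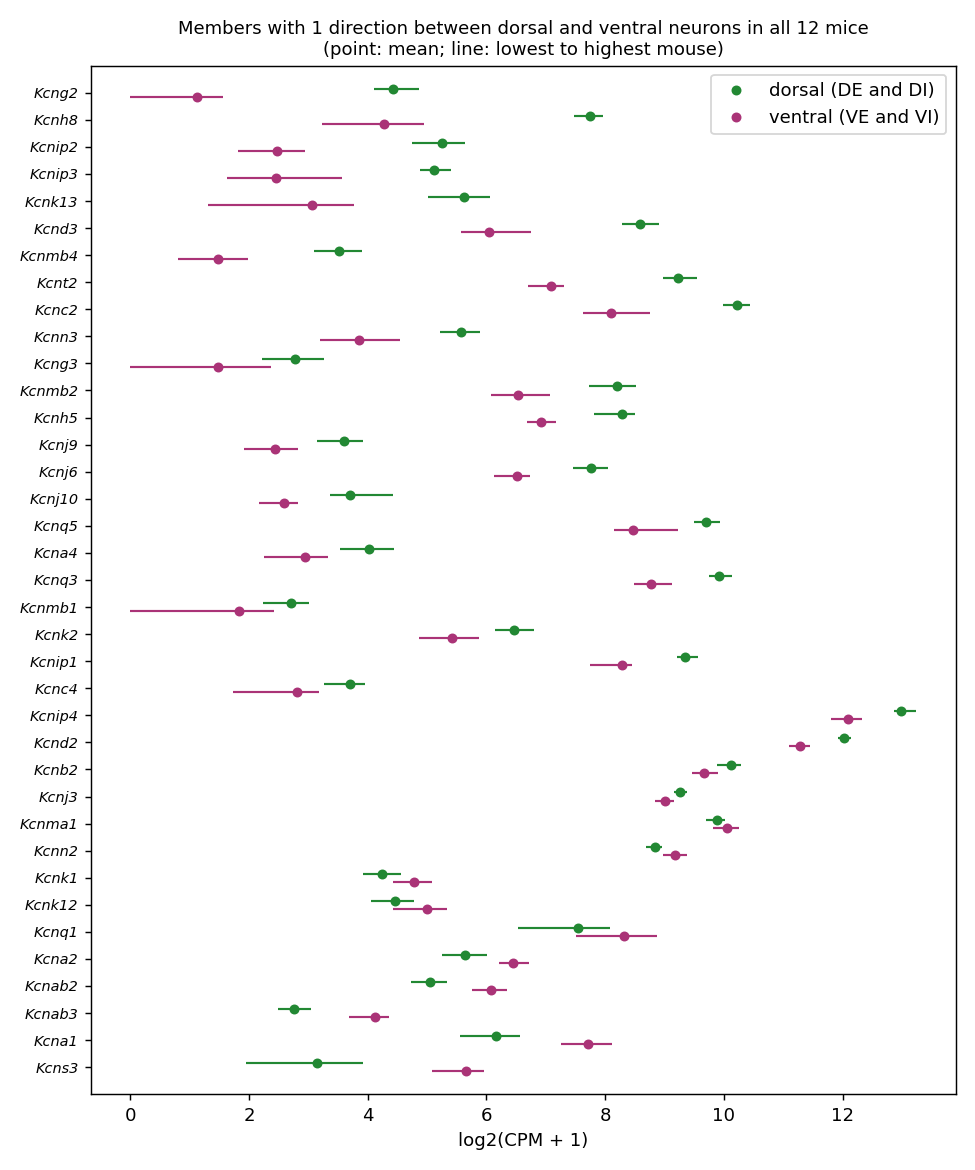
Level (log2 of mean CPM + 1) of 37 members in dorsal (DE and DI) and ventral (VE and VI) neurons, with lines from the lowest to the highest of 12 mice. Shown are members of 1 direction in all 12 mice with at least 5 CPM on either side, from Kcng2 and Kcnh8, the farthest to the dorsal side, to Kcns3 and Kcna1 on the ventral side.

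Excitatory (DE, ME and VE) and inhibitory (DI, MI and VI) neurons, where ME and MI are the mid cord sub-types, differed in fewer members. Of these, 7 were higher in excitatory neurons in all mice (9.09%, against 4.08% of all genes) and 12 lower (15.6%, against 3.34%). Kcnmb2, a BK beta subunit that inactivates the channel, was 397 ± 58.7 CPM in inhibitory neurons (302 to 498) and 107 ± 20.5 in excitatory neurons (81.2 to 162). Kcnb2 (Kv2.2, a delayed rectifier) was 1380 ± 143 CPM in inhibitory and 779 ± 43.9 in excitatory neurons. These 2 genes did not overlap between the groups. Overlap is not given for the other members, and the share of all genes without overlap was not computed. Kcns2, Kcnn1 and Kcnip2 completed the 5 members with the largest inhibitory excess, at 0.355, 0.549 and 0.584 of the inhibitory level. On the excitatory side were Kcng2 (6.88 times), Kcnk13 (2.46 times), Kcnd3 (1.71 times), Kcnk9 (1.69 times) and Kcnh5 (1.49 times).

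Single sub-types stood out for some of them. Kcng2 was 31.2 CPM in DE and at most 5.94 in any other named sub-type. Kcnd3 was 476 CPM in DE, 232 in DI, 73.9 in VE and 43.8 in VI, and Kcnmb2 544 in DI and 59.3 in VE. Over the 44 members with at least 10 CPM in neurons, the highest sub-type mean was a median of 2.69 times the lowest (1.33 to 34.8), against a median of 1.57 over 8387 genes. The flattest was Kcnma1, with 1131 CPM in VI and 852 in DE.

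The genotypes were then compared within each cell type with limma-voom on UMIs summed per mouse, with terms for sex and genotype group and for pool, and with Benjamini-Hochberg adjustment over all genes of the type (FDR, threshold 0.1). Levels below are CPM on library sizes scaled by TMMwsp (scaled CPM), which differ from the unscaled CPM used above and for marker lists. A pair is the WT and the SOD1G93A mouse of the same sex and pool. Over the 10 cell types 2 results passed, Kcnma1 in astrocytes and Kcnk2 in motor neurons, and both were lower in SOD1G93A.

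Kcnma1 (chromosome 14, 23289431 to 24014491, minus strand) encodes the pore of the BK channel. In astrocytes the WT mice had 1036 (female, pool A), 748 (female, B), 1517 (female, C), 814 (male, A), 897 (male, B) and 1313 (male, C) scaled CPM. The SOD1G93A mice had 739, 649, 744, 652, 866 and 686 in the same order. Each SOD1G93A mouse was below its WT pair, 6 of 6, with the widest gaps in pool C and the narrowest for the males of pool B, and the groups overlapped. The log2 fold change was −0.50 (SE 0.137, 95% interval −0.79 to −0.22, limma FDR = 0.079), from 5112 UMIs in WT and 3050 in SOD1G93A. In astrocytes 1 of 42 members tested passed (2.38%), against 2.29% of 9347 genes.

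This call depended on single mice and on the pool term. It was above the threshold without any 1 of 8 mice, namely both females of pool C, both males of pool C, the WT female of pool A, the SOD1G93A female of pool B, the SOD1G93A male of pool A and the WT male of pool B (limma FDR 0.00568 to 0.258 over the 12 fits). Without the pool term the limma FDR was 0.202. With all 12 mice and the pool term, edgeR (FDR = 0.0869) and DESeq2 (FDR = 0.0425) also called Kcnma1, with their shares of all genes not computed. The log2 fold change was −0.49 without the pool term and −0.63 to −0.40 over the 12 fits. In neurons the log2 fold change of Kcnma1 was −0.00 (95% interval −0.19 to 0.19) and in motor neurons −0.42 (limma FDR = 0.161, 6 of 6 pairs lower). The summed astrocyte markers (Aqp4, Aldh1l1 and Gfap, 0 of 3 at 0) moved with genotype in the same nuclei, at 867 to 1122 CPM in WT and 1672 to 2225 CPM in SOD1G93A. The neuron genes were 712 to 1173 CPM in WT and 857 to 1658 CPM in SOD1G93A, and the oligodendrocyte list 1005 to 1522 and 1405 to 2764 CPM, and their part in the result was not tested. In the 1045 of 1555 astrocyte nuclei without UMIs of the 3 neuron genes, Kcnma1 was 1043 ± 222 CPM in WT and 685 ± 74.0 CPM in SOD1G93A. That is a ratio of 0.657 with 6 of 6 pairs lower, against 0.731 over all astrocyte nuclei on the same scale.

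Kcnk2 (chromosome 1, 189207930 to 189402273, minus strand) encodes the leak channel TREK1. In motor neurons the WT mice had 111 (female, pool A), 90.0 (female, B), 88.0 (female, C), 66.3 (male, A), 152 (male, B) and 59.5 (male, C) scaled CPM, and the SOD1G93A mice 35.1, 42.7, 0, 27.1, 60.4 and 38.2. Each SOD1G93A mouse was below its pair, 6 of 6, and the groups overlapped only between the highest SOD1G93A and the lowest WT mouse. The log2 fold change was −1.25 (SE 0.31, 95% interval −1.90 to −0.61, limma FDR = 0.0518), from 218 UMIs in WT and 53 in SOD1G93A. The value of 0 was 0 of 27658 UMIs in the mouse with 1 motor neuron nucleus, which allows up to 108 CPM, and without this mouse the log2 fold change was −1.23 (limma FDR = 0.0983). In motor neurons 1 of 37 members passed (2.7%), against 3.07% of 5118 genes.

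The Kcnk2 result was above the threshold without any 1 of 4 mice, namely the SOD1G93A female of pool B (limma FDR = 0.182), the WT female of pool C (0.116), the SOD1G93A male of pool A (0.107) and the WT male of pool B (0.123). It was also above it without the pool term (log2 fold change −1.25, limma FDR = 0.133), and over the 12 fits without 1 mouse the log2 fold change was −1.59 to −1.02. With all mice and the pool term, edgeR (FDR = 0.0582) and DESeq2 (FDR = 0.0454) also called Kcnk2, with their shares of all genes not computed. In other neurons its log2 fold change was −0.18 (95% interval −0.38 to 0.02), in astrocytes 0.37 (limma FDR = 0.323) and in OPCs 0.95 (limma FDR = 0.502), and differences between cell types were not tested. The plot of both called members shows the values of each mouse.

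**Figure D4:**
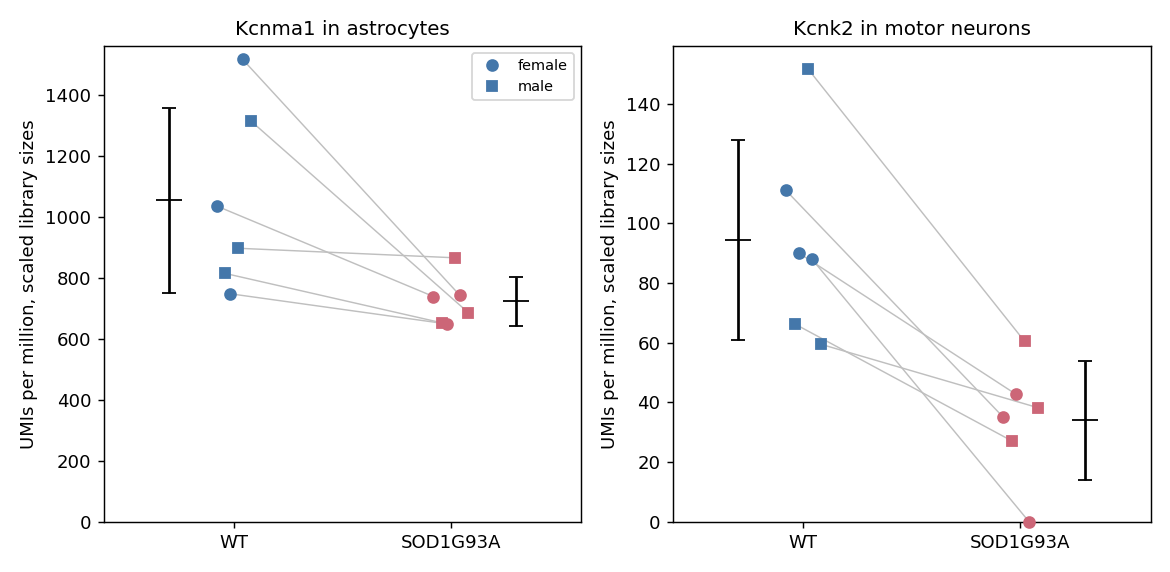
Scaled CPM of Kcnma1 in astrocytes and Kcnk2 in motor neurons in each mouse, WT and SOD1G93A, with grey lines joining mice of the same sex and pool and bars for the mean ± SD of 6 mice. The line of each of the 6 pairs falls for both genes, and the groups overlap.

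Motor neurons were the type in which most members stood below an unadjusted p of 0.05, at 14 of 37 (37.8%, against 15.9% of all genes tested). Of these, 10 were lower in SOD1G93A (27%, against 8.48%) and 4 higher (10.8%, against 7.44%). The median log2 fold change was −0.29 over the 37 members and 0.00 over all genes, with 25 members of negative and 12 of positive sign. Apart from Kcnk2 none passed the adjusted threshold, so that the values of the others are given as a description. Kcnip1 was 431 in WT and 262 in SOD1G93A (log2 fold change −0.73, limma FDR = 0.102, 6 of 6 pairs lower). Kcnn2 (SK2, of the afterhyperpolarization) was 476 and 332 (−0.60, limma FDR = 0.114, 5 of 6). Other negative values included those of Kcnip4 (−0.53), Kcnj3 (−0.49), Kcnab1 (−0.47), Kcnma1 (−0.42), Kcnq5 (−1.46) and Kcnj12 (−1.34). Kcnh8 had the largest positive value (2.02, limma FDR = 0.136), from 17 UMIs in WT and 45 in SOD1G93A, followed by Kcnn3 (1.03), Kcnc1 (0.76) and Kcnq3 (0.47). The neuron genes were at 2200 to 2576 CPM in WT and 2097 to 2978 CPM in SOD1G93A motor neurons. The OPC list was 1058 to 1642 CPM in WT and 804 to 1251 CPM in SOD1G93A, and the motor neuron list 1097 to 1649 and 680 to 2422 CPM, and the part of these shifts in the member values was not tested.

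**Figure D5:**
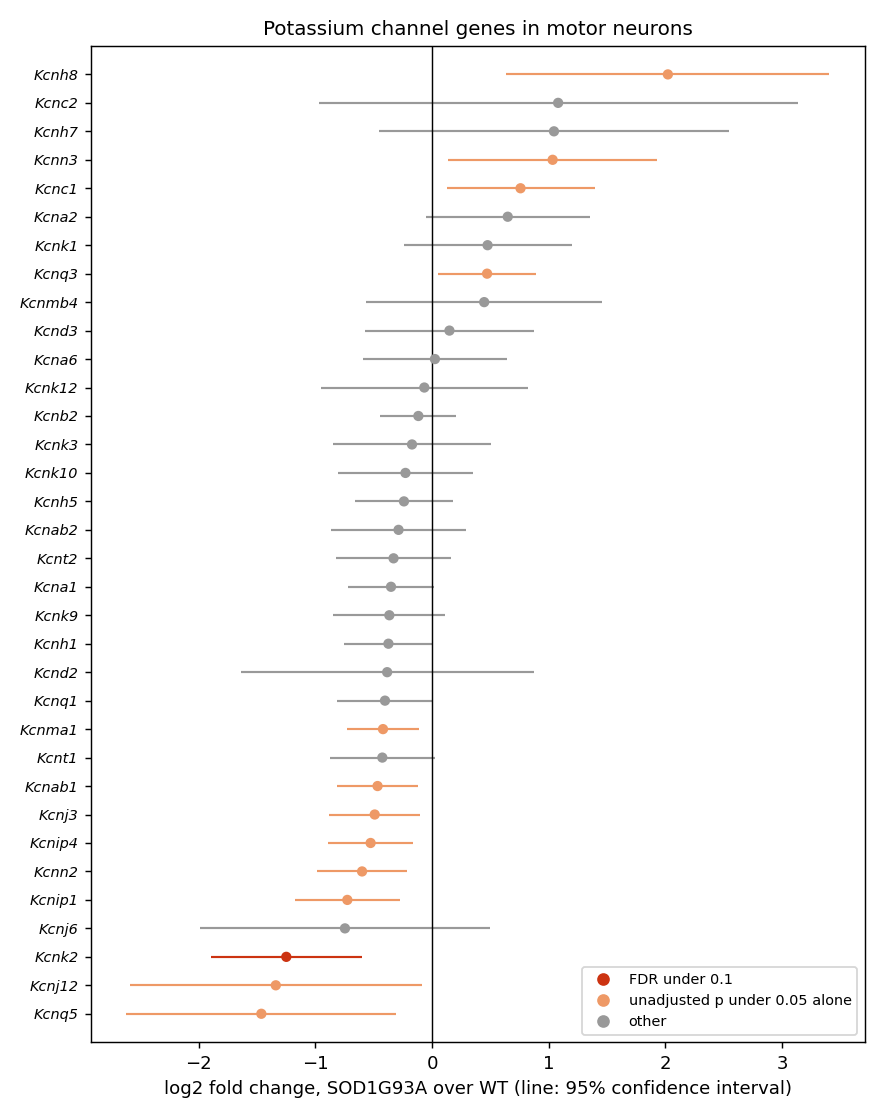
Log2 fold change, SOD1G93A against WT, of 34 of the 37 members tested in motor neurons, with 95% intervals from limma. Kcnk2 passed the adjusted threshold, 23 points lie below 0 and 11 above, and the intervals of 13 members exclude 0.

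In astrocytes 9 of 42 members had an unadjusted p under 0.05 (21.4%, against 13.6%), of which 6 were lower (14.3%, against 5.82%) and 3 higher (7.14%, against 7.77%) in SOD1G93A. The median log2 fold change was 0.12 over the 42 members, with 28 of positive sign, and 0.02 over all genes. The 3 with positive values included Kcna2 (72.6 in WT and 108 in SOD1G93A, log2 fold change 0.56, limma FDR = 0.223) and Kcnk2 (0.37, limma FDR = 0.323). Among the 6, Kcnk1 was 162 in WT and 117 in SOD1G93A (log2 fold change −0.44, limma FDR = 0.150, 6 of 6 pairs lower), and Kcnd2 4564 and 3675 (−0.31, limma FDR = 0.194, 5 of 6). The potassium uptake channels gave positive values, with Kcnj10 at 292 in WT and 336 in SOD1G93A (0.20, 95% interval −0.02 to 0.43, limma FDR = 0.428) and Kcnj16 at 57.8 and 63.5 (0.17, −0.19 to 0.53, limma FDR = 0.723). These intervals leave room for a rise of Kcnj10 of 0.43 on the log2 scale.

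In microglia 0 of 44 members passed in limma, against 0.0759% of 9218 genes. An unadjusted p below 0.05 was found for 8 (18.2%, against 7.94%), of which 7 were higher (15.9%, against 4.39%) and 1 lower (2.27%, against 3.55%) in SOD1G93A. Kcnd3 was 83.3, 137 and 170 in WT (lowest, median, highest) and 134, 203 and 386 in SOD1G93A, higher in 5 of 6 pairs (log2 fold change 0.70, SE 0.141, limma FDR = 0.105). It passed in edgeR (FDR = 0.0749) and DESeq2 (FDR = 0.0619). Kcnt2 was 199 and 325 on average (0.63, limma FDR = 0.236) and passed in DESeq2 (FDR = 0.0987). The shares of all microglia genes that passed in edgeR or DESeq2 were not computed. Kcnc2 was 496 and 697 (0.48, limma FDR = 0.275). In the 15 microglia nuclei without the 3 neuron genes, Kcnd3 was 48.8 CPM against 173 CPM in all microglia nuclei, Kcnt2 16.1 against 255 and Kcnc2 68.3 against 581. The 6 neuron genes were 2149 to 2973 CPM in WT and 2345 to 3089 CPM in SOD1G93A microglia, and their part in these values was not tested.

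In OPCs Kcnd3 was 143, 204 and 449 in WT and 270, 301 and 500 in SOD1G93A, higher in 6 of 6 pairs (0.74, limma FDR = 0.327). DESeq2 alone of the 3 tools called it (FDR = 0.0789), and the share of all OPC genes that DESeq2 called was not computed. In OPCs 0 of 34 members passed in limma, against 0.0411% of 4868 genes, with 3 at an unadjusted p below 0.05 (8.82%, against 6.39%). In neurons 0 of 70 members passed in limma, against 0.0255% of 15681 genes, and 0 passed in edgeR or DESeq2. An unadjusted p below 0.05 was found for 5 (7.14%, against 4.16%). The smallest neuronal p-values belonged to Kcns3 (−0.30, limma FDR = 0.914), Kcnn2 (−0.18, limma FDR = 0.990) and Kcnj2 (0.42, limma FDR = 1.00). Kcnn2 was 537 in WT and 472 in SOD1G93A neurons, lower in 6 of 6 pairs.

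In oligodendrocytes 0 of 46 members passed in limma (0.0475% of 10521 genes), 4 had an unadjusted p below 0.05 (8.7%, against 4.77%), and the smallest p belonged to Kcnip3 (29.8 and 16.2, log2 fold change −0.97, limma FDR = 0.719). In endothelial cells 0 of 21 members passed (0.0131% of 7637 genes), 5 had an unadjusted p below 0.05 (23.8%, against 4.37%), and the median log2 fold change was −0.39, with 15 members of negative sign, against −0.01 over all genes. Kcnq3 was 102 in WT and 64.5 in SOD1G93A endothelial cells (−0.75, limma FDR = 0.980). The mural cell list was 3764 to 4694 CPM in WT and 3027 to 4081 CPM in SOD1G93A there, and its part was not tested. In Schwann and meningeal cells 0 of 37 passed (0.036% of 5562 genes) and 2 had an unadjusted p below 0.05 (5.41%, against 4.66%), of which Kcnma1 had 0.46 (limma FDR = 0.999). Of 5 members tested in ependymal cells and 5 in fibroblasts, 0 passed (0% of 471 and 0% of 561 genes), and 1 and 0 had an unadjusted p below 0.05 (9.34% and 5.7% of genes). edgeR called no further member in these types, nor did DESeq2.

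Across the 9 neuron sub-types limma called 0 of 388 results of members for genotype, edgeR 0 and DESeq2 2, and 39 had an unadjusted p below 0.05 (10.1%, against 4.54% of results of all genes). The share of all genes called by limma was 0.0329% in DE, 0.019% in DI, 0% in ME, 0.06% in MI, 0.0296% in VC (ventral cholinergic), 0.00871% in VE, 0.0231% in VI, 0.0243% in VM (ventral mixed) and 0.027% in unclear neurons. The smallest p was that of Kcnh7 in DE, at 832 ± 82.6 in WT (726 to 928) and 660 ± 44.5 in SOD1G93A (587 to 709), without overlap (log2 fold change −0.33, limma FDR = 0.179, DESeq2 FDR = 0.0912). Groups without overlap were found for 1 of 55 members tested in DE and 0 in every other sub-type. The share of all genes without overlap was not computed, so that the lack of overlap adds nothing to the FDR. The other gene called by DESeq2 was Kcnt2 in VC (log2 fold change −1.05, DESeq2 FDR = 0.0814). How many of all genes DESeq2 called in each sub-type was not computed.

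Between females and males limma called 0 of 341 results of members over the cell types, edgeR 0 and DESeq2 0, and 29 had an unadjusted p below 0.05 (8.5%, against 5.56%). All genes were called at 0.139% in astrocytes, 0.223% in endothelial cells, 0.212% in ependymal cells, 0.178% in fibroblasts, 0.434% in microglia, 0.117% in motor neurons, 0.0701% in neurons, 0.185% in OPCs, 0.057% in oligodendrocytes and 0.108% in Schwann and meningeal cells. For the difference of the genotype effects between the sexes limma called 0 results of members, edgeR 0 and DESeq2 0, and 19 had an unadjusted p below 0.05 (5.57%, against 3.11%). Of all genes 0.0586% were called in motor neurons, 0.0107% in astrocytes and 0% in the other types.

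Of 30 other genes of potassium handling (partners of the channels, the sodium pump, potassium-chloride transporters and HCN channels), 2 of 17 tested in motor neurons passed in limma and 0 in every other type. An unadjusted p below 0.05 was found for 5 of the 17 in motor neurons (against 15.9% of all genes), for 5 of 20 in astrocytes (against 13.6%), and for 0 to 2 of the 4 to 28 tested in each of the other types (against 4.16% to 9.34%). Atp1b1, a sodium pump subunit, was 152 in WT and 317 in SOD1G93A (1.00, limma FDR = 0.0534, 4 of 6 pairs higher). Cntnap2 (Caspr2, which holds Kv1 channels at the juxtaparanode) was 16458 and 11497 (−0.51, limma FDR = 0.083, 6 of 6 pairs lower). In motor neurons 3.07% of all genes passed.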

How the data were processed

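Nuclei were hash-tagged and sequenced on the 10x platform (v3 chemistry). The deposited counts are raw UMIs per gene and nucleus, which the authors made with Cell Ranger 3.1 and STAR 2.5.1b on mm10 with introns. Per the submitters' processing notes, bcl2fastq 2.20.0.422, Seurat 4.0.3 and R 4.0.3 were also used. The authors removed nuclei with ambiguous or no hashtag signal. Cell types and neuron sub-types are the deposited ones, and sub-type sums hold all but 27 neurons, which have no sub-type. Doublets within 1 mouse were not marked, and the deposited normalized, integrated table was not used. Genotype, sex and pool came from the deposited table of mice.

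UMIs were summed per mouse and type. Genes were filtered with filterByExpr (minimum count 10) on the 4 groups of sex and genotype, scaled with TMMwsp, and fitted with limma 3.58.1 (voom, robust eBayes, terms for group and pool) in R 4.3.3. FDR was by Benjamini-Hochberg at a threshold of 0.1. edgeR 4.0.16, DESeq2 1.42.0, other scalings and filters, fits without the pool term and without each mouse were alternatives. Scripts were tested on simulated data. Python 3.11.15 with pandas 2.3.3 gave levels, and annotation was GENCODE M21, in which 77 of 77 members were matched. Of the members, 2 overlap another gene on their strand and 26 lie over an antisense gene.

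The members and lists were chosen with earlier results of these data known. Named genes are those called, the 3 of smallest genotype p per type, the 3 most specific per type with 50 or more UMIs, the 5 of largest ratio per sub-type contrast in each direction, and a fixed textbook list. Others, such as Kcnk3, Kcng4, Kcnk5, Kcnab1, Kcnh4, Kcna4 and the genes of complete lists, were named after their values were seen. Each pool holds 1 mouse of every sex and genotype and was sequenced together, and this pairing was in the model. Limits for a count of 0 cover counting error only, whereas the 95% intervals from limma rest on the spread between mice. Some results on single genes and sequences are not reported here, and the figures leave those genes out.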

Additional observations from a re-analysis of the deposited data

Results flagged for a closer look

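Of 48 groups of 6 mice examined by Dixon's ratio, 3 had a mouse set apart from the other 5, and chance sets apart about 1 in 20 groups. In OPCs, Kcnd3 was 448.7 scaled CPM in the WT male of pool C, against 143 to 233 in the other WT mice. The SOD1G93A male of the same pool had 500.3 for Kcnd3, against 270 to 351 in the other SOD1G93A mice. In oligodendrocytes, Kcnh8 was 50.2 in the SOD1G93A male of pool C, against 17.2 to 26.5 in the others.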

How the results depend on the processing

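Of 475 alternative values of 24 gene results, 0 reversed, 435 stayed on the same side of FDR 0.1, 14 lost it and 26 gained it. Members called for genotype over the cell types (2) became 5 with DESeq2, 11 with no filter on low counts, where more genes are tested, and 0 without the pool term (no replicate block), and ranged from 0 to 8 when 1 mouse was left out. They were 0 without the SOD1G93A male of pool A, 1 without either WT mouse of pool C, 5 without the WT male of pool B, 6 without the SOD1G93A male of pool B, 8 without the WT female of pool B, and 4 without the SOD1G93A female of pool A, that of pool B or the WT male of pool A. Over the sub-types (0) they became 2 with DESeq2 and 1 with no filter, and 0 to 1 without 1 mouse. For sex (0) they became 2 with no filter and 0 to 3 without 1 mouse, and for the difference between sexes (0) 0 to 1. The shares of all genes called under these alternatives were not computed. Whether a rise or fall in these counts was particular to the members cannot be told. Members highest in OPCs (5) became 3 with TMM scaling and 8 in nuclei without the 3 neuron genes, where members highest in microglia (0) became 3. Members above neurons in every OPC mouse (3) became 5 without the SOD1G93A female of pool C. The causes were not tested. Other counts stayed within 1.5 times, including those with ratios centred on the median gene, where that gene moved by at most 0.23 on the log2 scale (endothelial cells). Leaving out mice with few nuclei, centring the ratios and leaving out nuclei with neuron genes in the Kcnma1 ratio were chosen after seeing the data. Kcnk2 was not tested in motor neurons at a minimum count of 30.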
